A study of Mus musculus with 15 samples.

Results

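Crosslink sites that lie in the interior of protein-coding 3′UTRs but have no AU-rich element core pentamer, AUUUA, nearby were collected from 6 iCLIP lists. A site was a member when its 3′UTR (mm10, GENCODE M21, the transcript with the longest 3′UTR) was at least 300 nt long, when it lay more than 100 nt from both ends of that 3′UTR, and when no AUUUA lay wholly within 50 nt of it in the spliced transcript. Of 123142 different site positions in the 6 lists, 24535 were members, or 19.9%. They belonged to 2679 genes and made up 48.8% of the 50266 positions in 3′UTR interiors. The other 25731 interior positions had the pentamer within 50 nt and serve as the comparison.

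iCLIP crosslinks a protein to RNA with ultraviolet light, purifies the protein, and reads the crosslinked base as the position just before the start of each cDNA. The protein was tristetraprolin (TTP, encoded by Zfp36) or TTP-AA, in which the serines that the kinase MK2 phosphorylates are replaced by alanine, each fused to GFP and purified with a GFP-binding nanobody. Both were expressed from a retroviral vector by 6 h of doxycycline (1 µg/ml) in bone marrow-derived macrophages from TTP-deficient C57BL/6 mice, so that no group had its own TTP. The macrophages were immortalized with the oncogenes hcmyc and hRas, which limits them as a model of primary macrophages. Lipopolysaccharide (LPS, 1 µg/ml) was given for 0 h, 1 h or 4 h, with 2, 4 and 2 TTP samples and 2, 3 and 2 TTP-AA samples, in that order. The libraries of a group were deposited as 1 summed list, so no value below has a replicate error, intervals cover counting error only, and every test compares 2 pooled lists rather than 2 conditions. The 2 lists at 1 h also carry a different region setting in their header names, so that time and peak calling cannot be told apart. List depth ranged from 19167 cDNAs (TTP-AA 4 h) to 174397 (TTP-AA 1 h). A count of 0 was read as at most 3 cDNAs in that list, the floor used for every lower bound below. The lists hold only sites that passed peak calling, and cDNAs removed there are not covered by this floor. The lower bounds therefore describe listed cDNAs and are not bounds on binding.

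TTP carries a pair of CCCH zinc fingers, each of which binds the tetramer UAUU, and the fingers together prefer a nonamer that has AUUUA at its core. Bound TTP recruits deadenylase complexes and shortens the life of the mRNA, as is best known for Tnf in macrophages. In LPS-treated cells, MK2 phosphorylates TTP, 14-3-3 proteins bind it, and its action on mRNA is reduced. Sites that lack AUUUA are therefore of interest for what else lies under the crosslink.

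The sequences below are examples from named genes, picked as stated for each set, and are no sample of all members. Each line gives the 29 nt around the member with most cDNAs over all 6 lists in that gene, unless stated, read 5′ to 3′ from the GENCODE M21 transcript with mm10 coordinates, with the crosslinked base as base 15. Capitals mark each run of 5 or more uridines and each of the pentamers UAUUU or UUAUU. The first set has U-runs or UA-containing pentamers and is shown because these pentamers led the sequence comparison below.

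Actb, chr5:142903268-142903296, minus strand: uucaUUUUUgUUUUUaauuucugaauggc

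Cfl1, chr19:5493769-5493797, plus strand: gggagccugUAUUUUUUUUUUUaacgaca

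Sdc4, second member by cDNAs, chr2:164425133-164425161, minus strand: ccaugUUUUUUUUUUUUUUUUUUUUUUaa

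Jun, chr4:95049748-95049776, minus strand: uguauguacauauaUAUUUUUUUUUaauu

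Klf6, chr13:5869210-5869238, plus strand: auauauaaaUAUUUUUUUaagaagaaacu

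Cebpb, chr2:167690274-167690302, plus strand: uuggucUUAUUAUUUUUUUUguauuauau

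Ybx1, chr4:119278204-119278232, minus strand: cagcauggggUUUUUAUUAUUUUUaccua

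Hnrnpa0, chr13:58127188-58127216, minus strand: gauggacucUAUUUUUUUAUUAUUacuug

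Ccnd2, chr6:127128614-127128642, minus strand: guucuguUUAUUAUUAUUAUUUUUcgcug

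B2m, chr2:122152757-122152785, plus strand: aucuuacuuuaaaUAUUUuaugcauguuu

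Mdm2, chr10:117689949-117689977, minus strand: uuuuccuuaUAUUUuaaauaaucuccgcu

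The second set has none of these pentamers. Lars2 and Rnf225 are shown because they held very tall members, and Lyz2 and Tmsb4x because their 3′UTRs hold 0 AUUUA. The leading members of Tnf, Ccl9, Cxcl2, Nfkbiz, Junb, Icam1, Ctsb and Hnrnpk also have none of these pentamers within the 29 nt and are not shown.

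Lars2, chr9:123461784-123461812, plus strand: aggagucagcaggaggccuaaggcgagcu

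Lars2, second member, chr9:123461945-123461973, plus strand: cagaaaaguuaccacagggauaacuggcu

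Rnf225, chr7:12930782-12930810, plus strand: uucggcagcacguauacuaaaauuggaac

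Lyz2, chr10:117277418-117277446, minus strand: uccuucauucacacuaacucugagacaga

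Tmsb4x, chrX:167207379-167207407, minus strand: agguuggaucaaguuuaaaugacugugcu

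The first question was how often each protein was found away from AUUUA. Members numbered 992 in TTP 0 h, 1252 in TTP-AA 0 h, 2582 in TTP 1 h, 21240 in TTP-AA 1 h, 201 in TTP 4 h and 237 in TTP-AA 4 h. As a share of all interior sites they were 42.8% (95% Wilson interval 40.8% to 44.8%) for TTP and 49.6% (47.7% to 51.6%) for TTP-AA at 0 h. At 1 h the shares were 49.9% (48.6% to 51.3%) for TTP and 47.7% (47.3% to 48.2%) for TTP-AA. At 4 h they were 46.3% (41.7% to 51.0%) for TTP and 56.7% (51.9% to 61.4%) for TTP-AA.

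**Figure D1:**
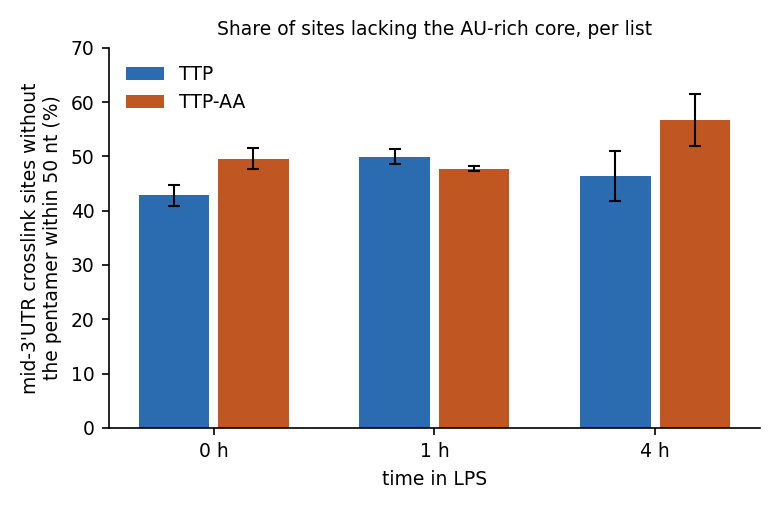
Share (%) of mid-3′UTR crosslink sites without AUUUA within 50 nt, by time in LPS, for TTP (blue) and TTP-AA (orange); bars start at 0 and error lines are 95% Wilson intervals of counting error, 1 pooled list per bar. TTP-AA lies above TTP at 0 h (49.6% against 42.8%) and at 4 h (56.7% against 46.3%), and slightly below it at 1 h (47.7% against 49.9%).

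The TTP-AA minus TTP difference in this share was 6.79 points at 0 h (Newcombe interval 3.98 to 9.58), -2.18 points at 1 h (-3.62 to -0.738) and 10.4 points at 4 h (3.67 to 17.0). The small difference at 1 h turned direction with the definition: it was 1.40 points when AUUUA was looked for within 20 nt and -4.12 points within 100 nt. Its interval spanned 0 without sites whose next 25 nt also occur in a transcript of another gene (-0.968 points, -2.44 to 0.498), with neighbouring sites merged (-0.231 points, -2.96 to 2.52) and for sites of at least 2 cDNAs (-2.66 points, -6.03 to 0.663). The interval at 0 h did so (4.95 points, -0.516 to 10.4) when neighbouring sites were merged. At 4 h the interval included 0 with AUUUA sought within 100 nt (6.13 points, -0.392 to 12.6), with merged sites (11.3 points, -1.22 to 23.4) and for sites of at least 2 cDNAs (10.5 points, -3.65 to 24.1). Within 3′UTRs that held both kinds of site and both proteins, the Mantel-Haenszel odds ratio of cDNAs without against with AUUUA, TTP-AA over TTP, was 1.18 at 0 h (0.937 to 1.48, 74 genes) and 0.954 at 1 h (0.884 to 1.03, 539 genes). Both intervals include 1, but not under every alternative. With AUUUA sought within 20 nt the ratio was 1.37 at 0 h (1.10 to 1.70) and 1.15 at 1 h (1.07 to 1.24). On the other side of 1, the ratio at 1 h was 0.914 (0.839 to 0.996) within 100 nt, 0.808 (0.737 to 0.886) over 200 nt from the 3′UTR ends and 0.872 (0.802 to 0.947) without the 5 genes with most cDNAs. The value at 4 h, 17.3 (4.70 to 63.4), rested on 6 genes and 163 cDNAs, and it was 3.89 when AUUUA was looked for within 20 nt.

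Most of a 3′UTR lies away from AUUUA, and members were sparse along it. In the 3′UTRs with interior sites, 81.7% to 83.5% of the interior positions had no AUUUA within 50 nt. Per kilobase of such positions, members numbered 1.36 in TTP 1 h and 3.56 in TTP-AA 1 h. Positions near AUUUA carried 6.70 and 18.9 sites per kilobase in the same lists. Site density near AUUUA was thus 4.93 and 5.31 times that of members, and the ratio ranged from 3.86 in TTP-AA 4 h to 6.22 in TTP 0 h.

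Most members rested on 1 cDNA, between 77.2% and 84.9% of them over the 6 lists. The mean number of cDNAs per member was 1.32 in TTP 1 h and 1.33 in TTP-AA 1 h, against 1.55 and 1.64 at sites with AUUUA. In the other 4 lists members had the higher mean: 1.27 against 1.24 in TTP 0 h, 1.27 against 1.20 in TTP-AA 0 h, 2.07 against 1.55 in TTP 4 h and 1.52 against 1.35 in TTP-AA 4 h. These means lean on a few tall sites, and the median was 1 cDNA for both kinds of site. Lars2 alone held 197 of the 416 member cDNAs in TTP 4 h. In TTP 0 h, Lars2 and Rnf225 held 71 and 61 of 1259. The means were not taken again without these genes, so their direction may rest on them. At 1 h, 1.12% of TTP and 1.59% of TTP-AA members had 5 or more cDNAs, against 3.05% and 4.19% of the sites with AUUUA. In TTP 4 h it was 4.48% of members against 3.43% of sites with AUUUA. Members came in groups: when members within 15 nt of each other were joined, 13.1% of the 5060 clusters in TTP-AA 1 h and 12.2% of the 817 in TTP 1 h held a single site.

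The bound 3′UTRs were not free of AUUUA as a rule. Members in 3′UTRs with no AUUUA at all were 11.4% of TTP-AA 1 h (2423 sites in 300 of 2370 genes) and 16.2% of TTP 1 h (417 sites in 87 of 638 genes). Of all annotated 3′UTRs of at least 300 nt, bound or not, 22.8% have none. That is a share of 3′UTRs and not of sites. A further 25.9% of the TTP-AA 1 h members and 21.3% of the TTP 1 h members had their nearest AUUUA 51 to 100 nt away, where 17.7% and 15.5% of the eligible positions of the same 3′UTRs lie. Members over 200 nt from AUUUA were 36.3% and 39.9%, against 45.8% and 45.7% of the positions. At the threshold itself, TTP-AA 1 h had 1133 sites with AUUUA 41 to 50 nt away that counted as near (mean 1.48 cDNAs) and 1490 members with it 51 to 60 nt away (mean 1.39). In all, 687 TTP-AA 1 h members had only a part of an AUUUA within 50 nt.

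Members also favoured the first part of the 3′UTR. The first of 3 equal stretches of the interior held 42.3% of the TTP-AA 1 h members and 44.7% of the TTP 1 h members, and between 41.3% and 52.7% over the 6 lists. Eligible positions of the same 3′UTRs were spread evenly, with 32.5% to 33.5% in that stretch.

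Uridine was the crosslinked base at 67.4% of the TTP 1 h members (65.6% to 69.2%) and 64.4% of the TTP-AA 1 h members (63.8% to 65.0%), against 30.6% and 31.4% of the eligible positions. Ultraviolet crosslinking itself favours uridine, and its part in these shares was not tested. Uridine was also crosslinked at 62.5% of TTP 1 h and 60.5% of TTP-AA 1 h sites with AUUUA, so a high share is not particular to members. At 4 h the share was 60.7% of members in TTP and 49.4% in TTP-AA, against 67.0% and 60.2% of sites with AUUUA. Adenosine, the first and last base of AUUUA, was crosslinked at 18.3% of the TTP-AA 1 h members and 24.8% of the sites with AUUUA.

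Pentamers within 20 nt of a member were counted and divided by their share at all eligible positions of the same 3′UTRs. The first set of sequences was picked for the pentamers at the top at 1 h, so that set is no support for them. UUUUU led TTP 1 h, near 48.1% of members against 14.8% of positions, a ratio of 3.24. The UA-containing pentamers UUAUU (25.7% against 6.89%, ratio 3.73) and UAUUU (31.6% against 9.21%, ratio 3.44) led TTP-AA 1 h, where UUUUU ranked 6 with a ratio of 2.89. In TTP 1 h, UUAUU and UAUUU ranked 2 and 4 with ratios of 2.86 and 2.70. All 10 leading pentamers of TTP-AA 1 h held only A and U, as did 5 of the 10 in TTP 1 h, and these 5 were the pentamers that both lists shared. The 15 pentamers that differ from AUUUA by 1 base had a median ratio of 1.19 in TTP 1 h and 1.53 in TTP-AA 1 h, with 2 and 4 of them at 2 or more.

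UAUUU or UUAUU, each of which contains the tetramer that a single zinc finger binds, lay near 37.6% of TTP and 39.9% of TTP-AA members at 0 h. At 1 h they lay near 23.9% of TTP members (22.3% to 25.6%) and 40.2% of TTP-AA members (39.6% to 40.9%). The TTP-AA minus TTP difference was 2.34 points at 0 h (-1.73 to 6.37) and 16.3 points at 1 h (14.5 to 18.1). With only the tallest member of each 3′UTR it was 18.3 points at 1 h (14.2 to 22.1). Within the 275 3′UTRs where it could be compared, the odds ratio at 1 h was 1.51 (1.32 to 1.73), so the direction held on the same transcripts.

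**Figure D2:**
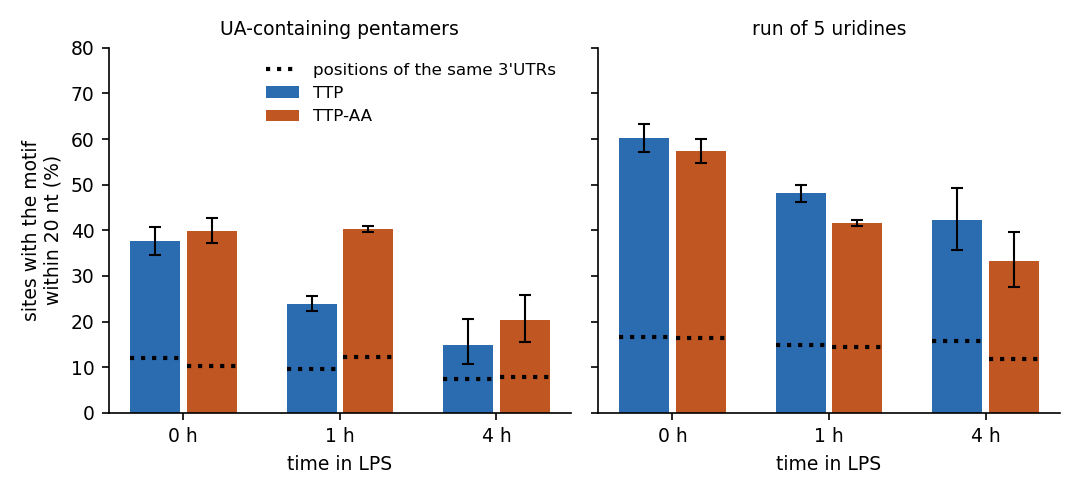
Share (%) of members with UAUUU or UUAUU (left) or a run of 5 uridines (right) within 20 nt, by time in LPS; bars start at 0, error lines are 95% Wilson intervals, and dotted lines give the share at eligible positions of the same 3′UTRs. The UA-containing pentamers lie near 23.9% of TTP and 40.2% of TTP-AA members at 1 h, while at 0 h the shares are 37.6% and 39.9%.

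Runs of uridine differed in the other direction at 1 h. At 0 h, UUUUU lay near 60.3% of TTP and 57.4% of TTP-AA members. By 1 h in LPS it was near 48.1% (TTP) and 41.7% (TTP-AA), and the lists at 4 h had 42.3% (TTP) and 33.3% (TTP-AA). With all genes, the difference at 1 h was -6.40 points (-8.44 to -4.36), with an odds ratio of 0.735 within 313 3′UTRs (0.648 to 0.833). With only the tallest member of each 3′UTR, however, the interval of the difference included 0 (-3.83 points, -8.19 to 0.492). At sites with AUUUA the share was lower, 30.3% in TTP 1 h and 29.8% in TTP-AA 1 h, and the ratio to eligible positions was 1.66 and 1.60. The crosslinked base itself lay in a run of at least 5 uridines at 29.3% of TTP members and 18.5% of TTP-AA members at 1 h (difference -10.7 points, -12.6 to -8.95). In a run of at least 10 uridines, like that of Sdc4 or Cfl1 above, it lay at 17.1% of TTP members (441 sites, 116 genes) and 5.53% of TTP-AA members (1175 sites, 284 genes). Within the same 3′UTRs, the odds ratio of such long runs, TTP-AA over TTP, was 0.361 (0.298 to 0.437, 131 genes). Each base of a run can be a separate site, so these intervals treat neighbouring sites as independent and are too narrow. No version with 1 member per 3′UTR was computed for crosslinks in runs. At 0 h, long runs held 19.7% and 17.6% of the members, and the interval of the difference (-2.09 points, -5.36 to 1.14) included 0.

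**Figure D3:**
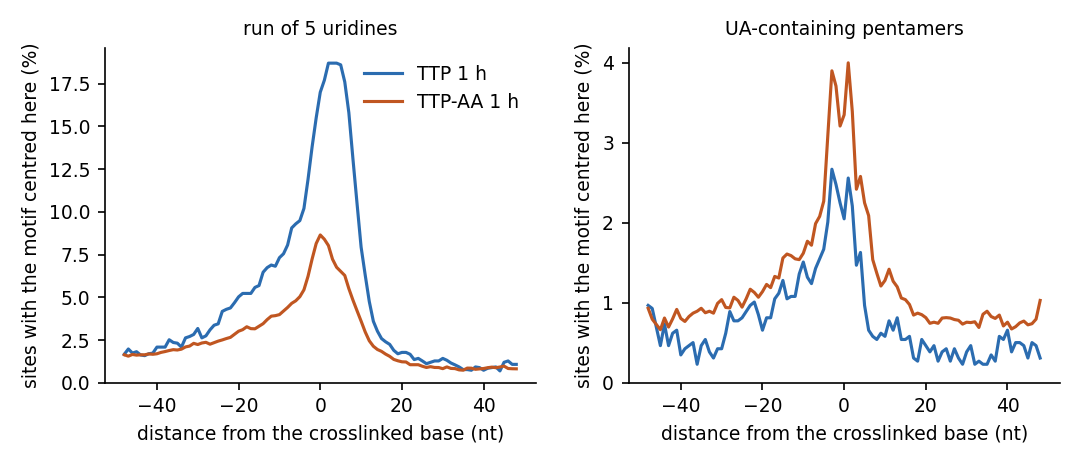
Share (%) of 1 h members with a run of 5 uridines (left) or UAUUU or UUAUU (right) centred at each distance (nt) from the crosslinked base at 0, for TTP (blue) and TTP-AA (orange); the y axes differ. Runs peak at 18.7% for TTP and 8.65% for TTP-AA close to the crosslink, and the UA-containing pentamers peak at 2.67% and 4.00%.

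Members without any of these 3 pentamers within 20 nt were 41.7% of TTP 1 h and 38.0% of TTP-AA 1 h, and at 4 h they were 52.2% and 55.7%. The GU octamer UGUGUGUG, a sequence of simple repeats, lay near 3.68% of TTP members (95 sites in 31 genes) and 1.10% of TTP-AA members (234 sites in 64 genes) at 1 h, 5.22 and 1.78 times its share at eligible positions. The difference was -2.58 points (-3.39 to -1.90), and the odds ratio within 32 3′UTRs was 0.271 (0.172 to 0.427). At 0 h the octamer lay near 2.12% of TTP members (5 genes) and 0.399% of TTP-AA members (1 gene), a difference of -1.72 points (-2.84 to -0.816). At 4 h it lay near 6.47% of TTP members (4 genes) and 0 TTP-AA members. The shorter UGUGU lay near 12.5% and 10.6% at 1 h, with a within-3′UTR odds ratio whose interval included 1 (0.925, 0.777 to 1.10). GCUUCGGG lay near 0 members of every list, which allows a share of up to 0.0141% in TTP-AA 1 h and 1.49% in TTP 4 h.

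Polyadenylation signals were also near members. AAUAAA or AUUAAA, the hexamers that direct mRNA cleavage, began within 40 nt downstream of 22.8% of TTP-AA 0 h members (20.5% to 25.2%) and 14.1% of TTP 0 h members (12.1% to 16.4%), against 4.38% and 4.57% of eligible positions. The shares at 1 h were 10.5% for TTP-AA (4.79% of positions) and 4.69% for TTP (4.14% of positions). The TTP-AA minus TTP difference was 8.65 points at 0 h (5.44 to 11.8) and 5.85 points at 1 h (4.87 to 6.71), and its interval at 4 h included 0 (0.901 points, -4.57 to 6.15). The within-3′UTR odds ratio was 1.90 at 1 h (1.49 to 2.42, 152 genes), whereas at 0 h its interval included 1 (1.53, 0.854 to 2.73, 20 genes). At sites with AUUUA the share was also larger in TTP-AA, so this direction is not particular to members. It was 13.8% in TTP-AA 0 h (7.10% of positions) and 7.85% in TTP 0 h (5.85%). At 1 h it was 8.37% in TTP-AA (6.44%) and 4.52% in TTP (5.03%), and at 4 h 8.84% and 1.72%. In TTP-AA 1 h, these members were led by Ybx3 (149 cDNAs at 31 sites), B2m (96 at 40) and Jun (77 at 25). The longest annotated 3′UTR was used for every gene, so some of these sites may lie near the end of a shorter isoform, which was not tested.

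At the level of genes, cDNAs at members of each 3′UTR were compared between the pooled lists at 1 h as a share of all interior 3′UTR cDNAs, by two-sided Fisher's exact test with Benjamini-Hochberg adjustment over 1666 genes by kind of site (members and sites with AUUUA counted apart). Each exact adjusted p below is from this test. TTP-AA had 8.95 times as many interior cDNAs as TTP in all, 8.29 times at members and 9.51 times at sites with AUUUA. Of all 1666, 6.18% were called. Of the 759 genes tested at members, 61 were called (8.04%), which is also the background for the gene lists below. A larger share in TTP was called for 46 (6.06%, background 4.44%). A larger share in TTP-AA was called for 15 (1.98%), near the background of 1.74%. The depths make the directions unequal: 5 cDNAs in each list were called as larger in TTP, whereas 60 in TTP-AA and 0 in TTP were not called (exact adjusted p = 0.06). The split of 46 to 15 is therefore no measure of balance. In 432 of the 759 genes TTP had 0 cDNAs, and the median log2 ratio of TTP-AA to TTP cDNAs was 4.52 with 0.5 added to each count and 2.32 with these genes at the floor of 3 cDNAs. Judged instead as a share of all cDNAs of the list, 8 genes had a larger share in TTP and 600 in TTP-AA. Of the 46 genes above with a larger share in TTP, 8 kept that call against the whole list, 8 turned to a larger share in TTP-AA and 30 were not called, while all 15 with a larger share in TTP-AA kept it.

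**Figure D4:**
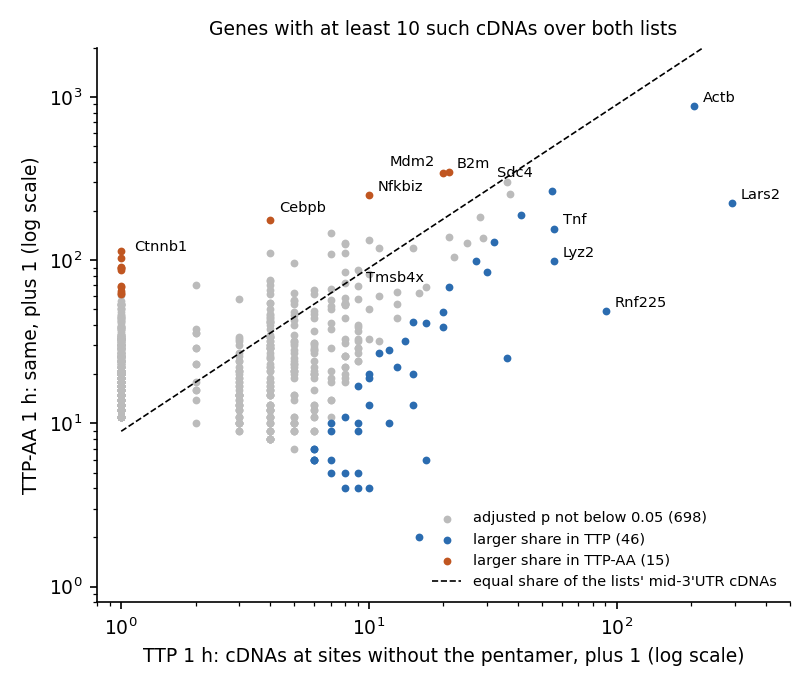
Each point is 1 of 759 genes, with its cDNAs at members plus 1 in TTP 1 h (x, log scale) and TTP-AA 1 h (y, log scale); the dashed line marks an equal share of the lists' interior 3′UTR cDNAs. Lars2, Rnf225, Actb and Lyz2 lie to the right of the line, and Ctnnb1, Cebpb, Nfkbiz, B2m and Mdm2 above it.

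Genes of the actin cytoskeleton carried many members. Actb (beta-actin) had 33, 205 and 30 member cDNAs in TTP (0 h, 1 h, 4 h) and 127, 875 and 18 in TTP-AA. It was the first or second gene by member cDNAs in 5 lists and ranked 3 in TTP 0 h, and its members were 85.9% of its interior cDNAs in TTP-AA 1 h. Its share was larger in TTP at 1 h (2.76% against 1.32%, odds ratio 0.470, exact adjusted p = 1.18e-16) and larger in TTP-AA at 0 h (4.08% against 1.14%, odds ratio 3.70, exact adjusted p = 1.19e-11). This turn between the times depends on the total used: of all cDNAs of the list, Actb was larger in TTP-AA at 1 h (0.502% against 0.207%) as well as at 0 h (0.389% against 0.0983%). Actb sites with AUUUA also had a larger share of interior cDNAs in TTP at 1 h (0.93% against 0.217%, odds ratio 0.232, exact adjusted p = 9.35e-17). At 0 h those sites were not called (exact adjusted p = 0.748). Of the Actb member cDNAs, 25 in TTP 1 h and 74 in TTP-AA 1 h had a next 25 nt that also occurs in a transcript of another gene. Cfl1 (cofilin, which severs actin filaments) had 31 cDNAs in TTP 1 h, 128 in TTP-AA 1 h, 20 in TTP-AA 0 h and 0 in TTP 0 h, and its share at 1 h was larger in TTP (exact adjusted p = 0.0085) but larger in TTP-AA as a share of the whole list (0.0734% against 0.0312%). No interior site of it at 1 h was near AUUUA. Msn (moesin, which links actin to the membrane) had 6 and 145 cDNAs at 1 h (exact adjusted p = 0.110). Of the 17 genes of this list with a long enough 3′UTR, 13 had members in TTP-AA 1 h and 9 in TTP 1 h, and 79.6% and 75.9% of their interior cDNAs were at members. Among 11 tested, 2 (Actb and Cfl1) had a larger share in TTP and 0 in TTP-AA, although both turned against the whole list, with a median log2 ratio of 3.08.

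Cytokine and chemokine mRNAs, the classical TTP targets, had few members. The rule itself leaves fewer eligible positions in 3′UTRs rich in AUUUA, such as those of Tnf with 8 and Cxcl2 with 11. The share of eligible positions was not computed for this or any other gene list. The percentages of cDNAs at members in the gene lists are therefore no measure of a preference in binding. In TTP-AA 1 h, 265 of their cDNAs were at members and 5465 at sites with AUUUA, so that members held 4.62%, and in TTP 1 h they held 5.28%. Tnf, the cytokine TTP is best known to restrain, had 55 member cDNAs in TTP 1 h and 155 in TTP-AA 1 h, and 0 at 0 h and 4 h. Its share was larger in TTP (0.741% against 0.233%, odds ratio 0.313, exact adjusted p = 2.89e-09), but of the whole list it was larger in TTP-AA (0.0889% against 0.0554%). The share of Tnf sites with AUUUA was larger in TTP too (9.03% against 2.24%, odds ratio 0.23, exact adjusted p = 7.42e-163), so this direction is not particular to members. Of the Tnf member cDNAs, 13 and 26 had a part of AUUUA within 50 nt. Cxcl2, a neutrophil chemokine, had 2 and 32 member cDNAs, and all of them had a part of AUUUA within 50 nt, against 193 and 2010 at sites with AUUUA. Ccl9, another chemokine, had 7 and 43. Of 16 genes with a long enough 3′UTR, 7 had members in TTP-AA 1 h, and 1 of 5 tested (Tnf) was called.

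Feedback regulators of NF-κB and MAP kinases had members at 1 h in 8 genes in TTP-AA and in 1 gene, Nfkbiz, in TTP. Over all genes, 2370 had members in TTP-AA 1 h and 638 in TTP 1 h, lists that differ in depth. At sites with AUUUA, these feedback genes had 244 cDNAs in TTP 1 h. Nfkbiz, which encodes the nuclear regulator IκBζ, had 9 cDNAs in TTP 1 h and 248 in TTP-AA 1 h, at 6 and 141 sites (odds ratio 3.09, exact adjusted p = 0.00498), and 0 at the other times. Its members were 69.7% of its interior cDNAs in TTP-AA 1 h. Tnfaip3, the ubiquitin-editing inhibitor A20, had 0 and 64 cDNAs at 1 h, so its share was at least 2.38-fold higher in TTP-AA (exact adjusted p = 0.0430). Nfkbia, the NF-κB inhibitor IκBα, had 0 and 28 (exact adjusted p = 0.405). In this list of 20 genes, 2 of 4 tested were called, both with a larger share in TTP-AA, with a median log2 ratio of 5.72, or 3.82 with the genes at 0 in TTP set to the floor.

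Among immediate early transcription factors, which cells switch on first after a stimulus, Klf6 had 102 and Junb 90 member cDNAs in TTP-AA 1 h and both had 0 in TTP 1 h (shares at least 3.80-fold and 3.35-fold higher, exact adjusted p = 0.00187 and 0.00483). Jun had 9 and 132 (exact adjusted p = 0.490) and its strongest members in TTP-AA, with up to 10 cDNAs, lay in the uridine run shown above. Of 20 genes, 11 had members in TTP-AA 1 h and 2 in TTP 1 h, against 2370 and 638 over all genes. Of 7 tested, 2 were called, both with a larger share in TTP-AA. Cebpb, a transcription factor of myeloid genes whose 3′UTR holds 0 AUUUA, had 10, 3 and 3 cDNAs in TTP at 0 h, 1 h and 4 h and 7, 175 and 11 in TTP-AA. Its odds ratio at 1 h was 6.53 (exact adjusted p = 0.000879).

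**Figure D5:**
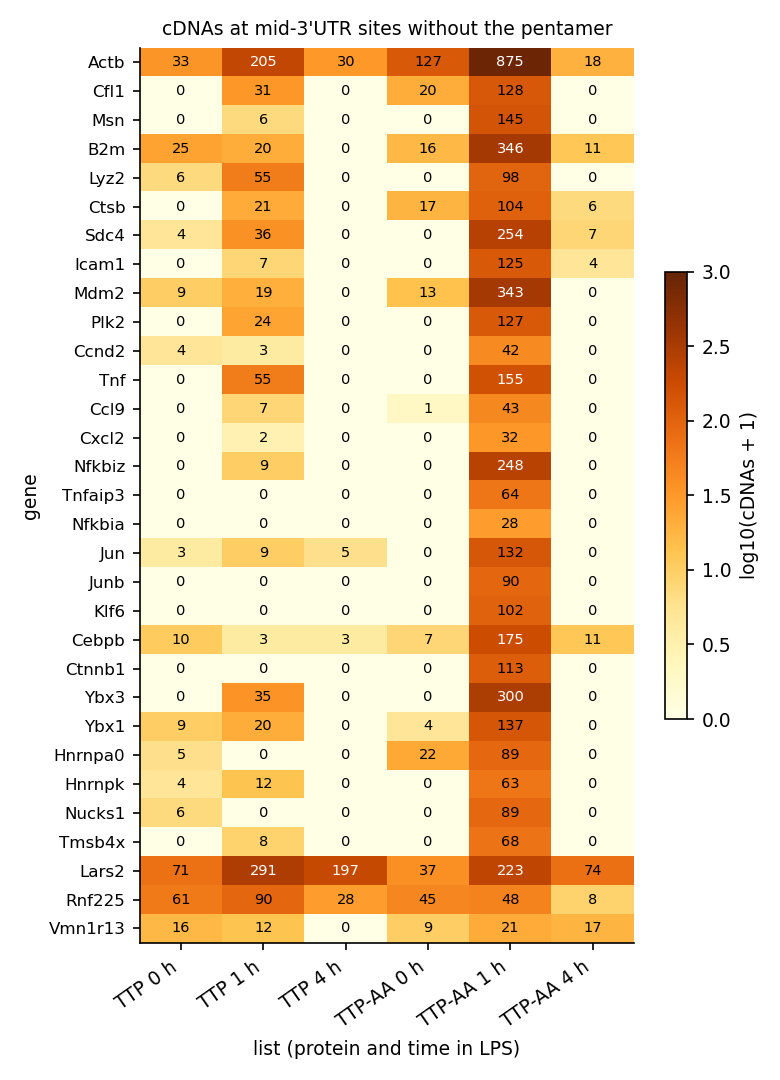
Numbers of cDNAs at mid-3′UTR members for the named genes (rows) in the 6 pooled lists (columns), with colour on a log10(cDNAs + 1) scale. Most genes are highest in TTP-AA 1 h, as Actb with 875 and B2m with 346, whereas Lars2 is highest in TTP 1 h with 291 and holds 197 in TTP 4 h.

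In the p53 pathway, Mdm2, the ubiquitin ligase that degrades p53, had 9 and 13 member cDNAs at 0 h, 19 and 343 at 1 h and 0 at 4 h in TTP and TTP-AA. Its share at 1 h was larger in TTP-AA (odds ratio 2.02, exact adjusted p = 0.0323), and members were 28.0% of its interior cDNAs in that list. Plk2, a kinase induced by p53, had 24 and 127 cDNAs at 1 h (exact adjusted p = 0.173), of which 3 and 36 had a part of AUUUA within 50 nt. Ccnd2 (cyclin D2) had 3 and 42 (exact adjusted p = 0.720), and its leading member, shown above, had 2 cDNAs and lay 1093 nt from the nearest AUUUA. Of 11 genes tested, 1 was called.

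B2m, the light chain of class I major histocompatibility molecules, had 25, 20 and 0 member cDNAs in TTP (0 h, 1 h, 4 h) against 16, 346 and 11 in TTP-AA. Its share at 1 h was larger in TTP-AA (odds ratio 1.94, exact adjusted p = 0.0409). Ctnnb1 (beta-catenin), with 0 AUUUA in its 3′UTR, had 113 cDNAs at 78 sites in TTP-AA 1 h and 0 in the other 5 lists. Among membrane and lysosomal genes, Sdc4, a cell-surface proteoglycan, had 36 and 254 cDNAs at 1 h (exact adjusted p = 0.493), Icam1, an adhesion molecule, 7 and 125 (exact adjusted p = 0.371), and the protease gene Ctsb 21 and 104 (exact adjusted p = 0.160). In Icam1, 6 and 57 of these had a part of AUUUA within 50 nt. Of 12 genes of this list tested, 1 (Tfrc, the transferrin receptor, 14 and 41 cDNAs, exact adjusted p = 0.0207) was called, with a larger share in TTP that was not called against the whole list. Tfrc, Zfp36l2 below and the leading genes at polyadenylation signals were named after their values were seen. Lyz2, the macrophage lysozyme, was in no list and had 55 and 98 cDNAs at 1 h, a larger share in TTP (odds ratio 0.198, exact adjusted p = 1.41e-15) that was not called against the whole list (0.0554% and 0.0562%).

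Transcripts of RNA-binding proteins were members' hosts too. Ybx3 had 35 and 300 cDNAs at 1 h and Ybx1 20 and 137; both encode cold-shock-domain proteins, and their shares were not called (exact adjusted p = 0.842 and 0.620). The 418-nt 3′UTR of Ybx1 holds 0 AUUUA. Hnrnpk had 12 and 63 (exact adjusted p = 0.425). Hnrnpa0 and Nucks1, a chromatin protein gene, were in no gene list. Hnrnpa0 had 0 and 89 and was called with a larger share in TTP-AA (at least 3.32-fold higher, exact adjusted p = 0.00483). Nucks1 had the same counts of 0 and 89. In the list of 20 RNA-binding and decay factor genes, 14 had members in TTP-AA 1 h and 9 in TTP 1 h. Of 11 tested, 1 was called: Zfp36l2, which encodes a relative of TTP and had 16 and 40 cDNAs. Its share was larger in TTP (exact adjusted p = 0.00354) but was not called against the whole list.

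Of the genes the study marked as targets without AUUUA, all 4 had members in both lists at 1 h. In the 3′UTRs used here, Lars2 and Tmsb4x hold 0 AUUUA, and Actb and Sdc4 hold 1 each. Tmsb4x (thymosin beta 4, which sequesters actin monomers) had 8 and 68 cDNAs at 1 h (exact adjusted p = 0.898) and 0 at the other times. This list was chosen by the study on these samples, and 2 of its 4 genes, Actb and Lars2, were called with a larger share in TTP, which for Actb turned against the whole list.

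Lars2, which encodes the mitochondrial leucyl-tRNA synthetase, stood apart. Its member cDNAs numbered 71, 291 and 197 in TTP and 37, 223 and 74 in TTP-AA at 0 h, 1 h and 4 h, and these were 47.4% of all member cDNAs in TTP 4 h and 20.5% in TTP-AA 4 h. The 2 leading sites alternated. The first, at base 123461798, had 77 cDNAs in TTP 1 h and 96 in TTP-AA 1 h but 0 in both lists at 4 h, and the second, at base 123461959, had 98 and 31 at 4 h but 3 and 1 at 1 h. Neither site has a next 25 nt found in a transcript of another gene, and 15 and 6 of the cDNAs at 1 h do. Likeness to the large nuclear ribosomal RNAs was not tested, so the Lars2 cDNAs cannot be assigned to the 3′UTR with certainty. The share of Lars2 at 1 h was 3.92% in TTP and 0.336% in TTP-AA (odds ratio 0.0826, exact adjusted p = 6.02e-149), and it was larger in TTP against the whole list too (0.293% against 0.128%).

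Rnf225, a ring-finger protein gene, had 61, 90 and 28 cDNAs in TTP and 45, 48 and 8 in TTP-AA. Its leading site, at base 12930796 with 63 cDNAs in TTP 1 h, lies inside Gm26325, a small nuclear RNA gene annotated on the same strand at chr7:12930774-12930880, and all 90 and 48 of its cDNAs at 1 h had a next 25 nt found in another gene. These cDNAs cannot be assigned to the 3′UTR with certainty. Vmn1r13, a vomeronasal receptor gene, ranked 3 in TTP-AA 4 h with 17 cDNAs. Over all members, sites whose next 25 nt occur in a transcript of another gene held 8.81% of the cDNAs in TTP 1 h, 1.86% in TTP-AA 1 h and 12.0% in TTP 4 h. Without them, the difference in UAUUU or UUAUU at 1 h was 15.2 points (13.3 to 17.0), and that in UUUUU was -7.27 points (-9.38 to -5.17).

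At 0 h the same test called 27.6% of 134 genes by kind of site, and 17 of 61 at members (27.9%), of which 12 had a larger share in TTP-AA (19.7%, against a background of 17.2%) and 5 in TTP (8.20%, against 10.4%). With at least 20 cDNAs a gene 6 of 20 were called, and with every site counted once 6 of 45. Cfl1 (0 in TTP and 20 in TTP-AA, a share at least 6.22-fold higher, exact adjusted p = 4.38e-05), Ctsb (0 and 17, at least 5.29-fold higher, exact adjusted p = 0.000292) and Hnrnpa0 (5 and 22, odds ratio 4.13, exact adjusted p = 0.00830) had a larger share in TTP-AA. Lars2 (71 and 37, odds ratio 0.480, exact adjusted p = 0.00244) had a larger share in TTP.

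At 1 h a smaller share of TTP members than of TTP sites with AUUUA had a TTP-AA site of the same kind nearby. In that comparison, 59.6% of the 2582 TTP members (57.7% to 61.5%) had a TTP-AA member within 15 nt, against 87.1% (85.7% to 88.3%) of the TTP sites with AUUUA, and the intervals do not overlap. Seen from the larger TTP-AA list, 14.8% of members and 25.4% of sites with AUUUA had a TTP site of the same kind within 15 nt. Both lists were denser near AUUUA, with 18.9 against 3.56 sites per kilobase in TTP-AA 1 h and 6.70 against 1.36 in TTP 1 h. The overlap that these densities alone would give was not computed. The contrast therefore does not show that member positions were shared less. At 0 h the shares of TTP sites had overlapping intervals for both kinds, 32.3% (29.4% to 35.2%) and 33.8% (31.3% to 36.4%). Of the TTP-AA 0 h members, 72.8% (70.3% to 75.2%) had a TTP-AA 1 h member within 15 nt, and of the TTP 0 h members 36.9% (33.9% to 39.9%) had a TTP 1 h member, where the 1 h lists differ in size. Across the 6 lists, 22997 of the member positions occurred in 1 list and 13 in all 6.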

How the data were processed

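Crosslink sites were measured by iCLIP in 15 samples. The authors removed the barcodes and PCR duplicates (by 4 random bases), mapped unique reads to mm10 with Bowtie (version not given in the sources used here), took the base before each read as the crosslink and kept sites with an iCount FDR below 0.05 (100 permutations, 15 nt neighbourhood). They summed the libraries of a group, and the deposited score of a site is its number of unique cDNAs, signed by strand. Groups came from the labels. A 3′UTR was taken from GENCODE M21 (21028 genes, 16574 with at least 300 nt), and a position in 3′UTRs of several genes went to the longest. Annotation, counting and tests ran in Python (3.11.15) on the libraries scipy (1.17.1), pandas (2.3.3) and numpy (2.4.6), and plots in matplotlib (3.10.9). Genes by kind of site with at least 10 cDNAs over both lists were tested, with an adjusted p threshold of 0.05, on code first tested on simulated data. Sequence backgrounds used every eligible position of the same 3′UTRs, weighted by its sites, and no random draws. Reads carry short random barcodes, so counts are not fully independent molecules.

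Genes are named by rule: the 3 with most member cDNAs per list, the 5 members with the smallest adjusted p per direction at 1 h, the study's genes without AUUUA, and up to 3 per gene list with most member cDNAs in TTP-AA 1 h. A gene that the rule names is not reported here. Members, lists and tests were chosen with earlier results of these data known. Alternatives changed the AUUUA window, 3′UTR margin, transcript, cDNA minimum and reference cDNAs.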

Additional observations from a re-analysis of the deposited data

Results flagged for a closer look

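The odds ratio of a gene's share, TTP-AA over TTP, was compared between 0 h and 1 h by Woolf's test on the counts with Benjamini-Hochberg adjustment, a test added after seeing the data. Of 129 genes by kind of site tested at both times, 16 differed, and of the 58 tested at members 14 did. In 11 of these the odds ratio fell: by a factor (1 h over 0 h) of 0.128 for Actb (0.0848 to 0.194), 0.0864 for Rnf225, 0.171 for Lars2, 0.242 for Zfp36l2, 0.0718 for Cd81, 0.0641 for Slc6a6, 0.0118 for Cfl1, 0.00980 for Wdr89, 0.0165 for Ctsb, 0.148 for Ubtf and 0.161 for Set. It rose by 3.15 for B2m (1.47 to 6.77), 8.44 for Cebpb (2.05 to 34.7) and 379.3 for Serinc3 (7.16 to 20093). Cfl1, Ctsb and Wdr89 had 0 TTP cDNAs at 0 h, and Serinc3 had 0 TTP-AA cDNAs at 0 h and 0 TTP cDNAs at 1 h, so that their values depend on the 0.5 added to each count. Odds ratios were of shares of interior cDNAs. As a share of all cDNAs of the list, that of Actb was 3.97 at 0 h and 2.44 at 1 h, on the TTP-AA side both times. The 2 times differ in peak calling as well as in LPS, which cannot be told apart.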

How the results depend on the processing

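No paired analysis was possible because each list is a sum over libraries, and leaving out a replicate could not be run for the same reason. In 64 comparisons of an alternative with its result the value stayed within its interval or, for counts, close to the main count, in 35 it moved and in 1 it reversed. The share difference (TTP-AA minus TTP) at 1 h reversed to 1.4 points with AUUUA sought within 20 nt, and was -4.12 points within 100 nt and -0.231 with merged sites. That at 0 h was 10.4 points within 20 nt and 13.6 for sites with at least 2 cDNAs. The within-3′UTR odds ratio at 1 h was 1.15 within 20 nt, 0.808 over 200 nt from the 3′UTR ends and 0.872 without the 5 genes with most cDNAs, and that at 4 h was 3.89 within 20 nt, with no value within 100 nt. Genes called at members numbered 608 at 1 h against all other cDNAs of the list. At 0 h they numbered 62 of 170 tested with at least 5 cDNAs, 6 of 20 with at least 20 and 6 of 45 with every site counted once. Overlap at the same nucleotide was 12.5%, 30.2% and 16.4% at 0 h, 1 h and 4 h. It was 36.6% and 64.8% within 50 nt at 0 h and 1 h, and 38.8%, 66.3% and 74.4% for sites with at least 2 cDNAs. Pentamer ratios at 1 h within 10 nt, within 40 nt and against all 3′UTRs were 4.92, 2.18 and 5.37 for UUUUU in TTP, 3.82, 1.96 and 2.98 for UAUUU in TTP, 4.02, 2.09 and 4.66 for UUUUU in TTP-AA, and 4.87, 2.45 and 4.91 for UAUUU in TTP-AA. With 1 site per 3′UTR, an alternative chosen after seeing the data, UUUUU was 3.56 in TTP and 3.26 in TTP-AA, and UAUUU was 4.02 in TTP-AA. The causes were not tested. The alternatives without shared sequence, without Lars2 and Rnf225 and with any base of AUUUA within 50 nt were also chosen after seeing the data. Most members rest on 1 cDNA, and the lists at 4 h hold too few for most comparisons within 3′UTRs.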
